A study of Mus musculus with 18 samples.

Results

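The 28 genes described here encode the enzymes of cholesterol synthesis, the SREBP2 regulators that set their transcription, and carriers that move sterols out of lysosomes, across membranes and out of the cell. They were taken as a list of symbols by function, with no threshold on a measured value, although earlier results of these data were known. Shares of the list set beside those of all genes are therefore descriptions. All 28 were found among the 24421 gene symbols of the deposited count tables. All 28 also passed the filter on low counts, among 13169 genes tested in cultured cells and 14605 genes tested in sorted cells. By role they comprise 8 mevalonate enzymes, 3 squalene enzymes, 8 sterol-ring enzymes, 4 regulators and 5 transport genes.

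The libraries came from a study of POT1a, a shelterin protein that covers the single-stranded end of telomeres, in bone marrow mesenchymal stem cells (MSCs) of C57BL/6 mice. For the cultured part, CD51+ PDGFRα+ cells were sorted from marrow cultures of mice aged 4 to 6 months that carried a flox-stop-flox tdTomato reporter and were either Pot1a wild/wild or Pot1a flox/flox. Cells of both genotypes received Cre recombinase gesicles, were sorted again as tdTomato+ cells and were profiled at week 1 and week 4 of culture, with 3 libraries for each genotype and week, named here wt/wt and Δ/Δ. For the sorted part, tdTomato+ cells were taken directly from the marrow of NG2-cre / loxp-tdTomato mice aged 2 weeks, with 3 libraries titled wt/Δ and 3 titled Δ/Δ. NG2-cre is active in pericytes throughout the body, so recombination in the animal was not limited to MSCs. Within marrow, the paper reports tdTomato only among stromal cells that were PDGFRα+ CD51+. The genotype field of all 6 sorted libraries reads POT1afl/fl, so that their grouping rests on the titles. Mice numbered 3 per group, but the labels do not tie each library to a mouse, and p-values therefore measure the spread between libraries, part of which may be technical.

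Library totals ranged from 12807832 to 90717232 counts in culture and from 28918757 to 49992698 counts in sorted cells. Pot1a itself showed no fall in whole-gene counts of the Δ/Δ cultures. In CPM (TMM-scaled counts per 1000000), it lay at 33.8 to 36.6 in wt/wt and 31.1 to 37.9 in Δ/Δ at week 1, and at 33.2 to 37.8 in wt/wt and 42.8 to 47.9 in Δ/Δ at week 4. In sorted cells it lay at 26.9 to 34.3 in wt/Δ and 19.1 to 31.0 in Δ/Δ. The paper itself reports a significant reduction of Pot1a mRNA after deletion in culture, and reduced expression in sorted tdTomato+ cells by qPCR. Counts over the whole gene do not single out the floxed part, so the CPM values neither check nor replace the labels, and the groups are called by their labels throughout. Of 12 mesenchymal stromal markers, at least 11 were detected in every library, including Pdgfra and Itgav, which encode the sorting antigens. Thy1 was scarce, at 0 in every Δ/Δ library of week 4 and at most at 2.27 CPM in any library. Replicate 1 of week 4 stood apart in both genotypes: these libraries deviated from their group means in the same direction across genes (correlation 0.636).

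Cholesterol is built from acetyl-CoA through mevalonate and isoprenoid units to squalene, which is closed to lanosterol and then trimmed to cholesterol by enzymes of the sterol ring. The transcription factor SREBP2 drives the genes of nearly every step: when membrane sterol is low, SCAP carries SREBP2 to the Golgi for cleavage, and when sterol is ample, INSIG proteins hold the complex in the endoplasmic reticulum. Oxysterols act through LXR receptors on a separate set of genes, with the exporters ABCA1 and ABCG1 among them. In skeletal stromal cells, sterol intermediates also bear on hedgehog signalling, and loss of several of the sterol-ring enzymes causes skeletal malformation syndromes in humans.

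SREBP2 binds sterol regulatory elements close to the start site, usually beside boxes bound by NF-Y, and the promoters of the list were examined for both. Of the 28 genes, 22 were matched to promoter windows of RefSeq (GRCm38.p6, 300 bases each, from 250 before to 50 after the annotated start). Sqle, Fdps, Fdft1, Stard4, Npc1 and Abcg1 had no window and were not searched. The NF-Y box CCAAT, searched on both strands, occurred in 19 of the 22 (86.4%) and in 41.1% of all 27025 genes with a window. The core TCACNCCAC of the sterol regulatory element, also searched on both strands, occurred in 1 of the 22, Hmgcs1, and in 1.44% of all genes; looser forms of the element were not searched. These are matches of letters and not measured binding. The promoters below show the 200 bases before the start, read 5′ to 3′ on the gene's strand. They include 3 enzymes that were lower at week 4 and have 2 NF-Y boxes in this stretch (Mvd, Ebp, Nsdhl). The others are the 1 searched gene with the sterol element (Hmgcs1) and 2 genes that were not called lower (Insig2, Ggps1). Capitals mark the NF-Y box (CCAAT, or ATTGG where it lies on the other strand) and, in Hmgcs1, the element TCACCCCAC, which begins 137 bases before the start.
Hmgcs1, chr13:119690151-119690350, plus strand: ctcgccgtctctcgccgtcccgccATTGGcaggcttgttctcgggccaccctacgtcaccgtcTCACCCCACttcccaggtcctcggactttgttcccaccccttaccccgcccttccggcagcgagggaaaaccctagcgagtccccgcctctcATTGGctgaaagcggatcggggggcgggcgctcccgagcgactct
Mvd, chr8:122443423-122443622, minus strand: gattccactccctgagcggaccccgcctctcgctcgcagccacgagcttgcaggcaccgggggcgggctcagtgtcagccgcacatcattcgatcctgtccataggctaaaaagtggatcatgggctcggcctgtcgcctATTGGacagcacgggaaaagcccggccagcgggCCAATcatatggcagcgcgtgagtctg
Ebp, chrX:8193513-8193712, minus strand: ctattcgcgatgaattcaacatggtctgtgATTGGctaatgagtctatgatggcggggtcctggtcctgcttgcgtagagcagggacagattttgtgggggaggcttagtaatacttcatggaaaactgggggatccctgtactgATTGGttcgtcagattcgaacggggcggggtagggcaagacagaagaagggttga
Nsdhl, chrX:72918321-72918520, plus strand: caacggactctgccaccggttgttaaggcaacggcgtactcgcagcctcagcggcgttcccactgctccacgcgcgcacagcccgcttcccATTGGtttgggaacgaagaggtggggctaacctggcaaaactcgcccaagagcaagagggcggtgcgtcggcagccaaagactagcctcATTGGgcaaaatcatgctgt
Insig2, chr1:121332590-121332789, minus strand: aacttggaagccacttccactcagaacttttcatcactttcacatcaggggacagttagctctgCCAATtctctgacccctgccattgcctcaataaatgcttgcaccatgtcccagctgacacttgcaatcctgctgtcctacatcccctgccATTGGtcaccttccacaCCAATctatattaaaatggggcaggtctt
Ggps1, chr13:14063489-14063688, minus strand: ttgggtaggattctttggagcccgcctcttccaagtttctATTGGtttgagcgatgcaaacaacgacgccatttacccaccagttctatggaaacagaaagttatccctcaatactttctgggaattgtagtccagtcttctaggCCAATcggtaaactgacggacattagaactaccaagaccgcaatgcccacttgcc
Boxes of the same letters stood in promoters of genes that were called lower and of genes that were not. Insig2, which was called in no genotype comparison, holds 3 of them in the window shown and 0 in its other 2 annotated windows, and Ggps1 holds 2 in the stretch shown.

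Levels between genes were compared per kilobase of exon (CPM per kb). In wt/wt cells at week 1 the highest levels were those of Cyp51 (42.9 CPM per kb; range over 3 libraries 42.0 to 43.8), Npc2 (41.4; 37.1 to 44.5), Sqle (39.9; 37.3 to 42.5) and Hmgcs1 (38.9; 38.0 to 39.9). Neighbours in this order had overlapping ranges and are not ordered beyond their spread, while every library of Cyp51 lay above every library of Hmgcs1. Abcg1 was lowest at 0.397 CPM per kb and Tm7sf2 next at 0.855. In sorted wt/Δ cells the order was another: Npc2 (61.2 CPM per kb), Insig2 (51.4) and Ebp (38.9) led, Sqle stood at 5.62 and Cyp51 at 6.97, and Tm7sf2 was lowest at 0.244. The sorted and cultured tables differ in mouse age, cell source and scaling, so no difference between them was tested.

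At week 1 of culture, none of the 28 genes was called different between the genotypes. In the quasi-likelihood test of edgeR, adjusted over all genes by Benjamini and Hochberg, 0 of the 28 passed an adjusted p of 0.05, against 1.02% of all 13169 genes. DESeq2 called 0 of the 28 as well, and 445 of the 13316 genes it tested. At an unadjusted p under 0.05 there were 4 of the 28, beside 1570 of all genes (11.9%), a share close to that of the list. Their median log2 difference, Δ/Δ over wt/wt, was −0.02, beside −0.00 for all genes, and 5 of the 28 had libraries of the 2 genotypes that did not overlap, beside 22.6% of all genes. The highest value was that of Tm7sf2, a sterol C14 reductase, with 4.08, 3.00 and 4.21 CPM in wt/wt and 4.90, 5.03 and 5.84 CPM in Δ/Δ (log2 difference 0.48, SE 0.18, adjusted p 0.26). Npc2, which takes cholesterol up inside the lysosome, lay lower, at 242, 202 and 231 CPM in wt/wt and 191, 174 and 174 CPM in Δ/Δ (log2 difference −0.32, SE 0.11, adjusted p 0.20). In each of these 2 genes the groups did not overlap, yet neither passed the test. The summed level of the 19 enzymes lay at 1315 to 1344 CPM in wt/wt and 1274 to 1338 CPM in Δ/Δ, and these ranges overlapped.

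The week 1 levels of the enzymes that were later called show how close the genotypes were. Mvd stood at 20.3, 19.7 and 18.6 CPM in wt/wt and at 23.3, 19.7 and 19.8 CPM in Δ/Δ, Fdft1 at 51.1, 47.8 and 44.7 CPM and at 50.1, 44.0 and 48.0 CPM, and Sqle at 221, 235 and 207 CPM and at 219, 264 and 221 CPM. Cyp51 stood at 186, 194 and 189.6 CPM in wt/wt and at 187, 173 and 181 CPM in Δ/Δ, and Hmgcs1 at 178, 175 and 183 CPM and at 180.3, 153 and 169 CPM. In all 5 the groups overlapped. Fdps had separate groups, with 113, 103 and 104 CPM in wt/wt above 98.1, 84.2 and 92.1 CPM in Δ/Δ (log2 difference −0.22, SE 0.10, adjusted p 0.39). Ebp and Dhcr7 had the higher mean in Δ/Δ: Ebp stood at 46.7, 41.1 and 41.8 CPM in wt/wt and at 49.9, 51.3 and 47.5 CPM in Δ/Δ (0.20, SE 0.10, adjusted p 0.51), and Dhcr7 at 13.7, 17.4 and 14.6 CPM and at 19.8, 16.97 and 20.4 CPM (0.32, SE 0.13, adjusted p 0.35). Of these 3 genes, Fdps and Ebp had separate groups and none passed the test. Among regulators, Srebf2 stood at 127, 123 and 111 CPM in wt/wt and at 129.6, 102 and 125 CPM in Δ/Δ (−0.02, SE 0.24), and the 4 regulators together ranged only from −0.07 to 0.10.

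At week 4 most synthesis enzymes had fallen in the Δ/Δ cultures relative to wt/wt, by between 1.30-fold and 1.65-fold among those that passed the test. Of the 28 genes, 12 were called lower, against 6.46% of all genes, and 1 was called higher, against 9.2% of all genes. All 12 genes called lower were enzymes, so that 12 of 19 enzymes fell, 18 of 19 lay below 0, and no regulator was called. The median log2 difference of the 28 was −0.42 and that of all genes 0.00. The groups did not overlap for 15 of the 28, beside 27.4% of all genes. The summed level of the 19 enzymes was 1326, 1026 and 1147 CPM in wt/wt and 898, 870.1 and 773 CPM in Δ/Δ, with no overlap. In bulk libraries, less RNA per cell and fewer cells of an expressing type cannot be told apart.

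**Figure D1:**
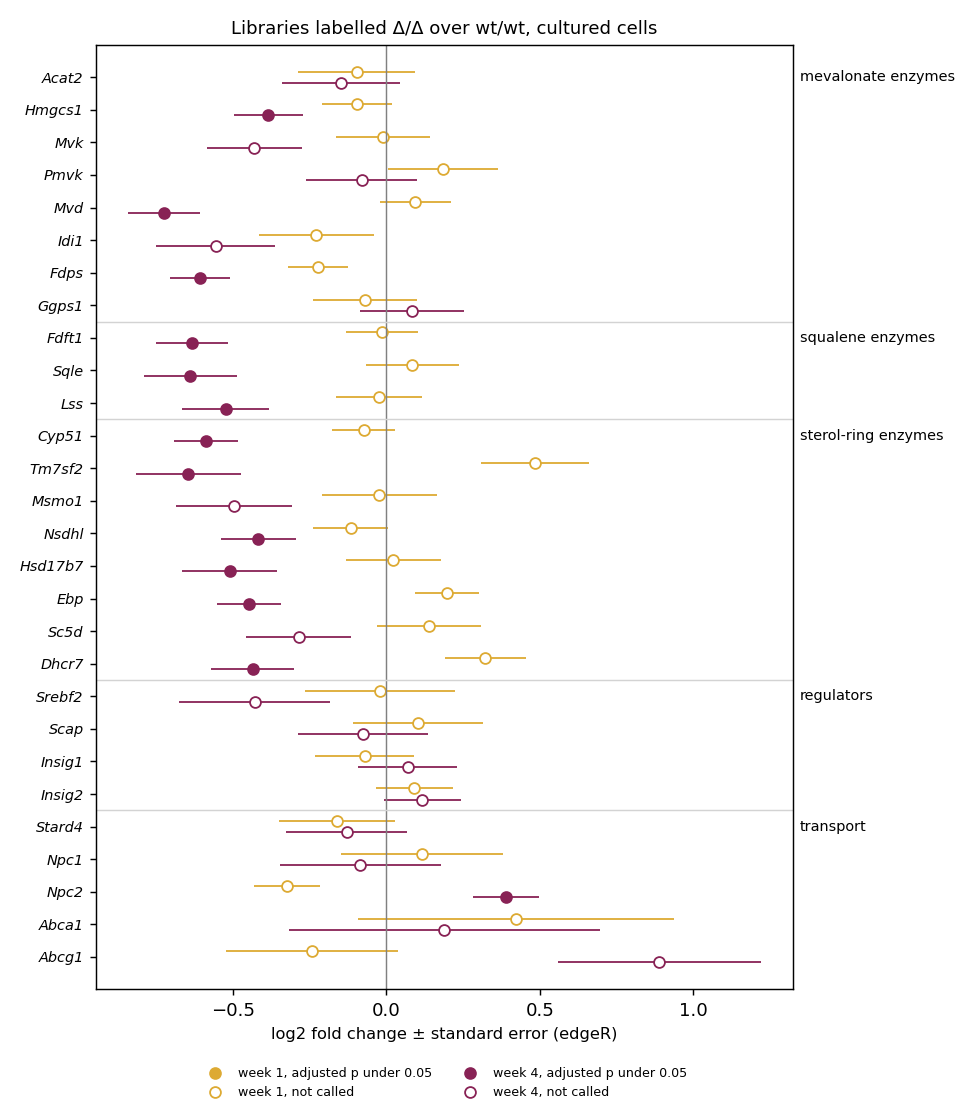
Log2 fold change of each of the 28 genes, libraries labelled Δ/Δ over wt/wt, at week 1 (yellow) and week 4 (purple) of culture, from edgeR with its standard error (lines) and 3 libraries per group. Filled points passed an adjusted p of 0.05: none of the yellow points is filled, while 12 purple points of the enzymes lie filled below 0 and Npc2 alone is filled above 0.

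The first enzymes of the pathway build isopentenyl units and join them. Among these 8 mevalonate enzymes, 3 were called lower at week 4. Mvd, which decarboxylates mevalonate diphosphate, stood at 17.1, 19.3 and 17.1 CPM in wt/wt and at 11.4, 10.0 and 10.96 CPM in Δ/Δ. Every Δ/Δ library was below every wt/wt library, and the log2 difference was −0.72 (SE 0.12, adjusted p 9.38e-04), the largest fall among the 12 enzymes. Fdps, which makes farnesyl diphosphate at the branch between sterols and other isoprenoids, stood at 68.1, 59.4 and 61.1 CPM in wt/wt and at 43.5, 40.2 and 40.0 CPM in Δ/Δ. These groups were also separate (log2 difference −0.61, SE 0.10, adjusted p 9.82e-04). Hmgcs1, the synthase that makes HMG-CoA, stood at 116, 104 and 126 CPM in wt/wt and at 83.3, 101 and 81.5 CPM in Δ/Δ. Its nearest libraries were close together, and the log2 difference was −0.38 (SE 0.11, adjusted p 0.038).

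The other 5 mevalonate enzymes did not pass. Mvk, the mevalonate kinase, was separate by group, with 24.8, 24.0 and 22.3 CPM in wt/wt and 17.6, 14.1 and 20.8 CPM in Δ/Δ (log2 difference −0.43, SE 0.16, adjusted p 0.087). Idi1, the isomerase of isopentenyl diphosphate, overlapped, with 9.49, 7.22 and 8.55 CPM in wt/wt and 5.28, 7.66 and 4.44 CPM in Δ/Δ (log2 difference −0.56, SE 0.19, adjusted p 0.077). Acat2, the thiolase at the entry of the pathway, Pmvk, the second kinase, and Ggps1, which extends farnesyl to geranylgeranyl diphosphate, gave log2 differences of −0.15, −0.08 and 0.08, each smaller than its standard error of 0.19, 0.18 and 0.17. Acat2 ranged from 32.8 to 54.9 CPM in wt/wt and from 30.8 to 44.6 CPM in Δ/Δ, and in each genotype replicate 1 was the highest library.

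All 3 squalene enzymes fell. Fdft1, which condenses farnesyl diphosphate to squalene and so commits it to sterols, stood at 46.8, 41.8 and 35.7 CPM in wt/wt and at 27.5, 25.8 and 26.7 CPM in Δ/Δ. The Δ/Δ libraries were tightly grouped below the lowest wt/wt library (log2 difference −0.63, SE 0.12, adjusted p 0.0025). Sqle, the squalene epoxidase and a rate-limiting step, stood at 269, 186 and 186 CPM in wt/wt and at 151, 141 and 121 CPM in Δ/Δ (log2 difference −0.64, SE 0.15, adjusted p 0.012). Lss, which closes the ring to lanosterol, stood at 59.3, 42.4 and 41.5 CPM in wt/wt and at 35.1, 30.8 and 33.4 CPM in Δ/Δ (log2 difference −0.52, SE 0.14, adjusted p 0.025). In each of these 2 genes wt/wt replicate 1 was the highest library, and the groups did not overlap with it or without it. The call of Lss was lost without that library and without Δ/Δ replicate 2 or 3, and the call of Sqle without Δ/Δ replicate 3.

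**Figure D2:**
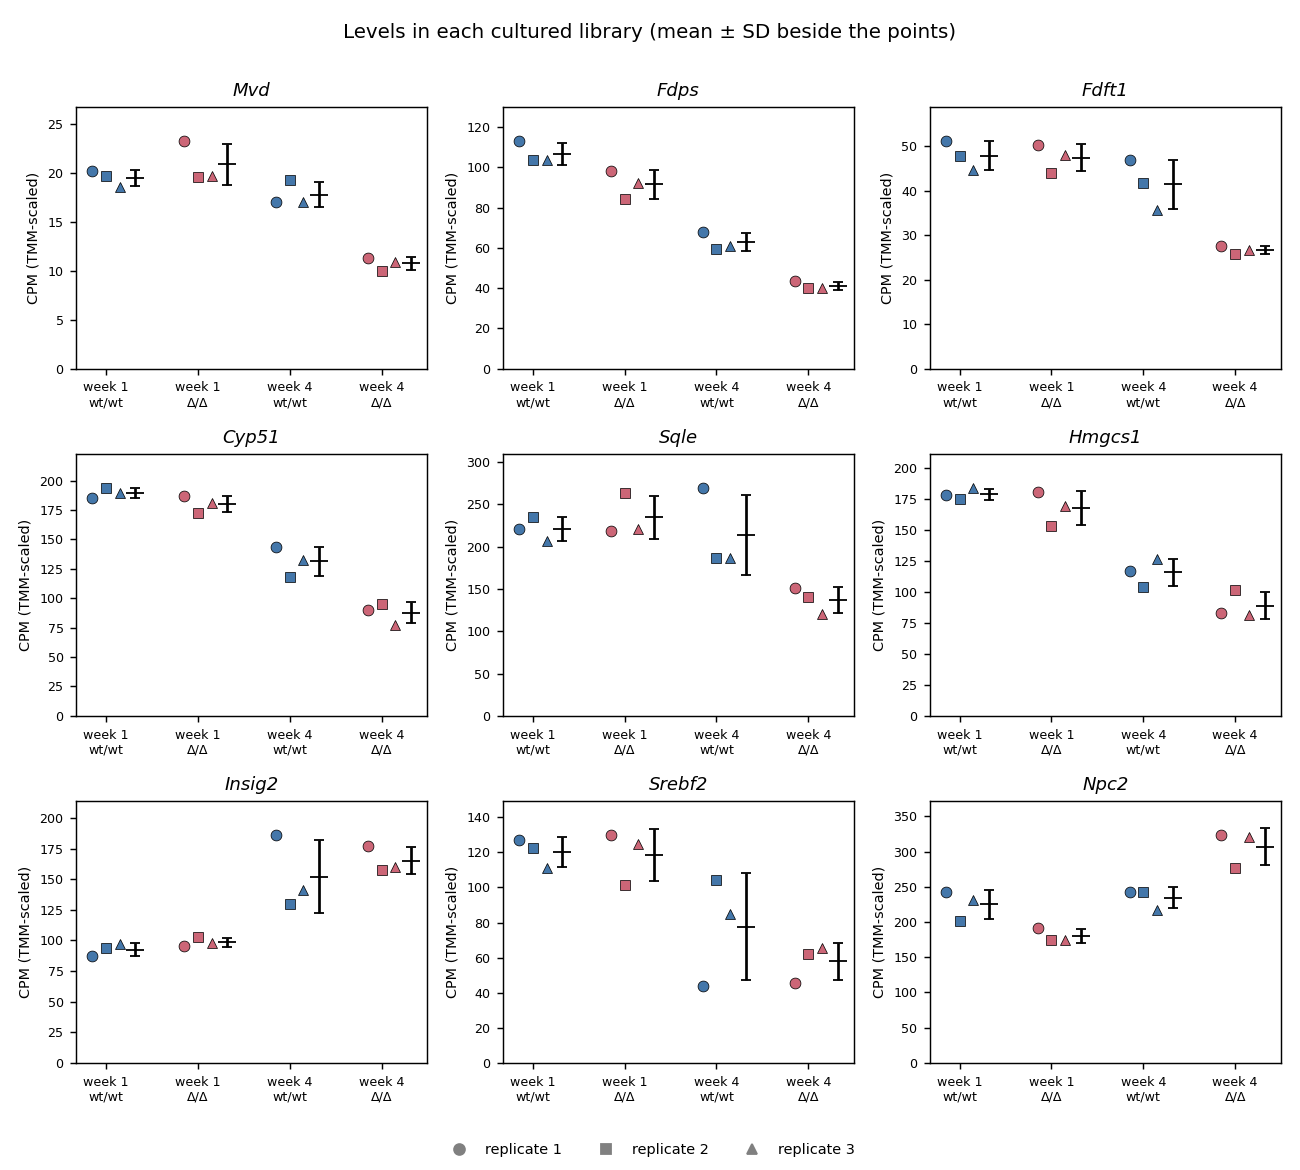
CPM after TMM scaling of 9 genes in the 12 cultured libraries, with wt/wt in blue and the libraries labelled Δ/Δ in red; marker shape gives the replicate number, and bars give the mean ± SD of 3 libraries. In Mvd, Fdps, Fdft1, Cyp51 and Sqle the red points of week 4 lie below all others, Npc2 is highest there, and Srebf2 is lowest in replicate 1 of week 4 in both genotypes.

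The sterol-ring enzymes turn lanosterol into cholesterol by removing methyl groups and moving double bonds, and 6 of these 8 were called lower. Cyp51, the lanosterol 14-alpha-demethylase, stood at 143, 118 and 133 CPM in wt/wt and at 90.1, 94.8 and 77.6 CPM in Δ/Δ (log2 difference −0.59, SE 0.10, adjusted p 0.0018). Ebp, the sterol isomerase, stood at 90.2, 82.4 and 73.2 CPM in wt/wt and at 62.1, 57.0 and 61.2 CPM in Δ/Δ (log2 difference −0.45, SE 0.10, adjusted p 0.011). Tm7sf2, the gene with the highest value at week 1, now lay the other way, with 7.70, 7.45 and 6.74 CPM in wt/wt and 3.84, 5.09 and 5.02 CPM in Δ/Δ (log2 difference −0.64, SE 0.17, adjusted p 0.023). In all 3 genes the groups were separate.

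The other 3 called enzymes of the ring were closer to the threshold. Nsdhl, part of the C4-demethylation complex, stood at 39.0, 32.5 and 30.0 CPM in wt/wt and at 28.2, 23.8 and 23.9 CPM in Δ/Δ (log2 difference −0.42, SE 0.12, adjusted p 0.037). Hsd17b7, the ketoreductase of the same complex, stood at 95.5, 71.6 and 103 CPM in wt/wt and at 68.5, 68.1 and 53.3 CPM in Δ/Δ (log2 difference −0.51, SE 0.15, adjusted p 0.043). Dhcr7, which makes cholesterol from 7-dehydrocholesterol, stood at 15.7, 16.2 and 15.8 CPM in wt/wt and at 12.5, 10.2 and 12.4 CPM in Δ/Δ (log2 difference −0.44, SE 0.13, adjusted p 0.045). These groups did not overlap either, although the gap in Hsd17b7 was small. Msmo1, the methyl oxidase of the C4 complex, had overlapping groups, with 92.6, 58.1 and 93.6 CPM in wt/wt and 64.7, 62.2 and 46.5 CPM in Δ/Δ (log2 difference −0.50, SE 0.19, adjusted p 0.11). Sc5d, the sterol desaturase, gave a log2 difference of −0.29 (SE 0.17, adjusted p 0.33), with libraries from 64.3 to 91.8 CPM in wt/wt and from 55.1 to 76.7 CPM in Δ/Δ.

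The 4 regulators were not called at week 4. Srebf2, which encodes SREBP2, stood at 44.0, 104 and 85.1 CPM in wt/wt and at 45.7, 62.1 and 65.7 CPM in Δ/Δ (log2 difference −0.43, SE 0.25, adjusted p 0.30). Replicate 1 was the lowest library in each genotype, and the groups overlapped only through that of wt/wt. Without wt/wt replicate 1 the log2 difference was −0.71 (adjusted p 0.0086), and without Δ/Δ replicate 1 it was −0.29 (adjusted p 0.56). Without replicate 1 of both genotypes it was −0.57 (adjusted p 0.021). The call thus depended on which replicate 1 libraries were kept. Scap stood at 53.8, 109 and 94.9 CPM in wt/wt and at 71.9, 82.4 and 90.7 CPM in Δ/Δ (log2 difference −0.08, SE 0.21). Insig1 stood at 32.1, 35.9 and 42.2 CPM in wt/wt and at 36.1, 44.6 and 35.4 CPM in Δ/Δ (log2 difference 0.07, SE 0.16). Insig2 stood at 186, 129.8 and 141 CPM in wt/wt and at 177, 157 and 160.0 CPM in Δ/Δ (log2 difference 0.12, SE 0.13). The groups overlapped for all 4 regulators.

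The transport genes did not share the direction of the enzymes. Npc2 was the single gene of the list called higher at week 4, with 243, 243 and 217 CPM in wt/wt and 323, 276 and 321 CPM in Δ/Δ (log2 difference 0.39, SE 0.11, adjusted p 0.026). Abcg1, an exporter to lipoproteins, was scarce, at 0.598, 1.03 and 0.638 CPM in wt/wt and 1.34, 1.88 and 1.18 CPM in Δ/Δ. Its groups were separate, but the log2 difference of 0.89 (SE 0.33) did not pass (adjusted p 0.096). Abca1, the other exporter, varied more within groups than between them, with 21.6, 95.6 and 81.5 CPM in wt/wt and 36.9, 128 and 63.6 CPM in Δ/Δ (log2 difference 0.19, SE 0.51). Npc1, the partner of NPC2 in the lysosomal membrane, and Stard4, a soluble sterol carrier, gave log2 differences of −0.08 (SE 0.26) and −0.13 (SE 0.20). Npc1 ranged from 10.5 to 18.4 CPM in wt/wt and from 8.03 to 17.8 CPM in Δ/Δ, again with replicate 1 lowest in each.

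How far each call at week 4 held was read from 20 alternative settings for each gene. Fdps, Fdft1, Cyp51 and Mvd were called in every one of them. Ebp was lost in 1 setting, Sqle in 2, Lss and Tm7sf2 in 4, Npc2 in 6, Nsdhl in 9, Hsd17b7 in 12, Hmgcs1 in 13 and Dhcr7 in 14. Of the week 4 libraries, leaving out wt/wt replicate 2 or Δ/Δ replicate 1 ended the call of Tm7sf2, leaving out wt/wt replicate 2 or 3 or Δ/Δ replicate 1 or 3 that of Npc2, and leaving out wt/wt replicate 1 or 2 or Δ/Δ replicate 2 or 3 that of Nsdhl. Hmgcs1, Hsd17b7 and Dhcr7 were lost without most single libraries, with adjusted p of at most 0.15, 0.15 and 0.13 over all settings. No call changed direction in any setting run, scalings included. The number of genes called, 13, fell to 7 without Δ/Δ replicate 3, the deepest library, and to 8 without Δ/Δ replicate 1. Calls over all genes fell as well, from 2062 of 13169 to 1551 of 13334 and 1753 of 13341.

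Markers of other cell types moved with genotype at week 4. The 5 osteoblast markers, all detected in every library, summed to 7410 to 9539 CPM in wt/wt and 1896 to 2675 CPM in Δ/Δ. The 5 adipocyte markers summed to 27.9 to 42.4 CPM in wt/wt and 88.9 to 120.1 CPM in Δ/Δ. The 5 osteoclast markers summed to 96.9 to 113 CPM in wt/wt and 152 to 173 CPM in Δ/Δ, nearly all of it Ctsk, while the defining genes Dcstamp, Ocstamp and Mmp9 were at or near 0. The 10 macrophage markers summed to 15.5 to 21.6 CPM in wt/wt and 17.9 to 21.1 CPM in Δ/Δ, with C1qa, C1qc and Fcgr1 at 0 in every library. The part of the osteoblast and adipocyte differences in the lower enzyme levels was not tested.

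Between week 1 and week 4, wt/wt cells changed the list in both directions. Called higher were 3 of the 28 (17.9% of all genes), and called lower were 7 (16.1% of all genes). In either direction 10 of the 28 were called (35.7%), a share near the 34% of all genes. The median log2 difference, week 4 over week 1, was −0.09, beside −0.01 for all genes. The largest fall was that of Abcg1, from 3.63, 2.89 and 2.18 CPM to 0.598, 1.03 and 0.638 CPM (log2 difference −1.92, SE 0.32, adjusted p 5.72e-04). Stard4 fell from 25.6, 20.8 and 21.9 CPM to 6.80, 8.79 and 10.99 CPM (log2 difference −1.35, SE 0.20, adjusted p 2.11e-04). In these 2 transport genes the weeks were separate by a wide gap.

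Among the enzymes, 5 fell and 2 rose in wt/wt cells. Idi1 (log2 difference −0.82), Fdps (−0.77), Hmgcs1 (−0.63), Cyp51 (−0.53) and Lss (−0.43) were the 5 that fell, and the call of Lss was lost in 10 of 21 alternatives. Fdps, for example, went from 113, 103 and 104 CPM to 68.1, 59.4 and 61.1 CPM (SE 0.10, adjusted p 7.83e-05). Ebp rose from 46.7, 41.1 and 41.8 CPM to 90.2, 82.4 and 73.2 CPM (log2 difference 0.92, SE 0.10, adjusted p 2.77e-05), and Tm7sf2 from 4.08, 3.00 and 4.21 CPM to 7.70, 7.45 and 6.74 CPM (0.95, SE 0.18, adjusted p 0.0012). Enzymes of the same pathway thus moved in opposite directions over time. Insig2 was the third gene that rose, from 86.9, 93.9 and 96.8 CPM to 186, 129.8 and 141 CPM (log2 difference 0.72, SE 0.13, adjusted p 8.85e-04).

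Same-numbered wt/wt libraries of the 2 weeks deviated together, so a fit with the replicate number as a block was run on the wild-type libraries alone. It called 11 of the 28, beside 3512 of 12778 genes tested (27.5%), and the call of Lss was lost (adjusted p 0.13), while Abca1 (log2 difference 1.00, adjusted p 0.046) and Insig1 (−0.41, adjusted p 0.046) were gained. In the fit without a block, Abca1 went from 19.7, 34.3 and 32.8 CPM to 21.6, 95.6 and 81.5 CPM (log2 difference 1.203, SE 0.52, adjusted p 0.093), with replicate 1 of week 4 inside the week 1 range. Without that library the log2 difference of Abca1 was 1.62 (adjusted p 0.010).

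More of the enzymes fell over the same interval in the Δ/Δ cultures; the difference between the genotypes was tested gene by gene and is given further on. Called lower were 13 of the 28 (16.3% of all genes), and called higher were 2 (18.8% of all genes). The median log2 difference was −0.51, beside 0.00 for all genes. Of the 19 enzymes 11 fell and none rose, and all 15 calls of this comparison were kept in its 20 alternatives. Fdps fell from 98.1, 84.2 and 92.1 CPM to 43.5, 40.2 and 40.0 CPM (log2 difference −1.15, SE 0.10, adjusted p 3.97e-06), and Cyp51 from 187, 173 and 181 CPM to 90.1, 94.8 and 77.6 CPM (−1.04, SE 0.10, adjusted p 1.23e-05). For these 2 genes no week 4 library came near the week 1 range.

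**Figure D3:**
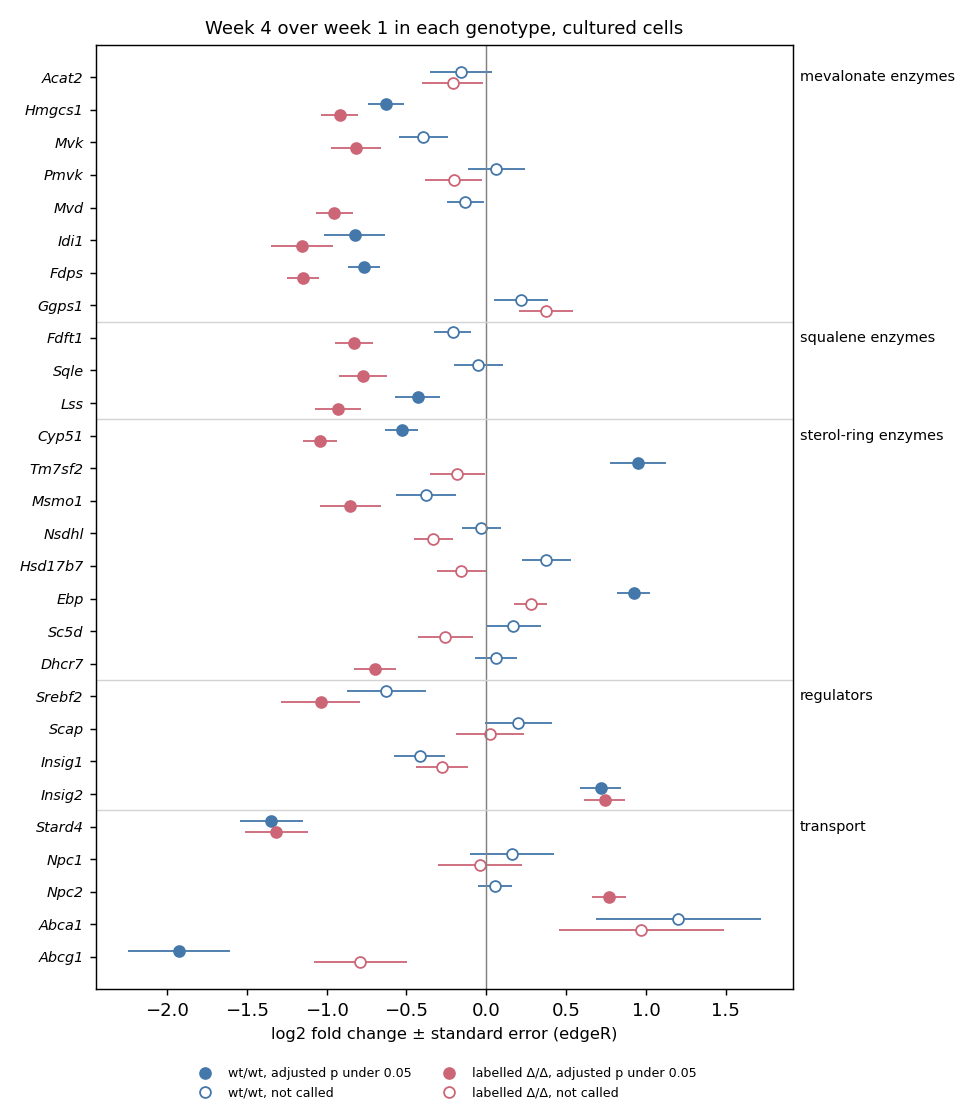
Log2 fold change of each of the 28 genes from week 1 to week 4, in wt/wt (blue) and in the libraries labelled Δ/Δ (red), from edgeR with its standard error (lines) and 3 libraries per group; filled points passed an adjusted p of 0.05. In wt/wt, Ebp, Tm7sf2 and Insig2 are filled above 0 and 7 genes below it; in Δ/Δ, 13 genes are filled below 0 and Insig2 and Npc2 above it.

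The other enzymes that fell in Δ/Δ were Idi1 (log2 difference −1.15), Mvd (−0.95), Lss (−0.93), Hmgcs1 (−0.92), Msmo1 (−0.85), Fdft1 (−0.83), Mvk (−0.81), Sqle (−0.77) and Dhcr7 (−0.70). Mvd, for example, fell from 23.3, 19.7 and 19.8 CPM to 11.4, 10.0 and 10.96 CPM (SE 0.12, adjusted p 5.82e-05), while in wt/wt it went from 20.3, 19.7 and 18.6 CPM to 17.1, 19.3 and 17.1 CPM (log2 difference −0.13, SE 0.12, adjusted p 0.41). Its weeks were separate in Δ/Δ and overlapped in wt/wt. Srebf2 fell from 129.6, 102 and 125 CPM to 45.7, 62.1 and 65.7 CPM (log2 difference −1.04, SE 0.25, adjusted p 0.0062), and here it was the single regulator called lower. In wt/wt the same gene went from 127, 123 and 111 CPM to 44.0, 104 and 85.1 CPM, with separate weeks and no call (log2 difference −0.63, SE 0.25, adjusted p 0.068). Insig2 rose from 95.3, 102 and 98.1 CPM to 177, 157 and 160.0 CPM (log2 difference 0.74, SE 0.13, adjusted p 6.85e-04). Npc2 rose from 191, 174 and 174 CPM to 323, 276 and 321 CPM (0.77, SE 0.11, adjusted p 1.51e-04), and Stard4 fell from 20.99, 19.1 and 20.9 CPM to 7.04, 10.7 and 7.05 CPM (−1.32, SE 0.20, adjusted p 2.49e-04).

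The time and genotype comparisons share libraries, so their values are given side by side and not as separate evidence. Markers of other cell states moved with time as well. The 5 osteoblast markers summed to 851 to 912 CPM in wt/wt and 1111 to 1366 CPM in Δ/Δ at week 1, and were higher in every library of week 4, as given above. The 5 adipocyte markers summed to 62.4 to 98.3 CPM in wt/wt at week 1, above all wt/wt libraries of week 4, and to 68.3 to 142 CPM in Δ/Δ, overlapping with week 4. Proliferation markers were lower at week 4 in both genotypes. These 7 genes, all detected in every library, summed to 697 to 736 CPM in wt/wt and 666 to 704 CPM in Δ/Δ at week 1, and to 136 to 182 CPM and 169 to 228 CPM at week 4. The part of these marker lists in the time differences was not tested.

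**Figure D4:**
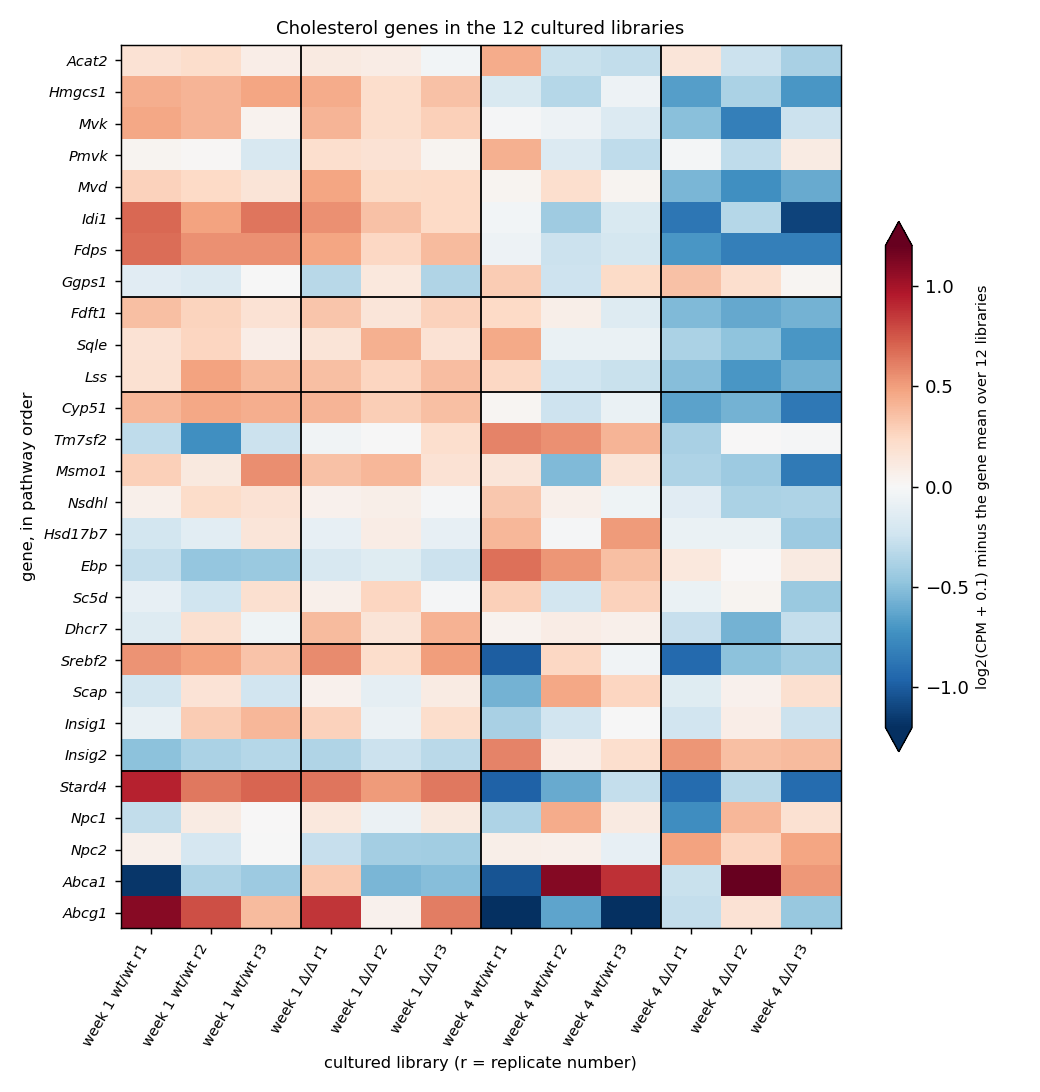
Each of the 28 genes (rows, in pathway order) in each of the 12 cultured libraries (columns), as log2(CPM + 0.1) minus the mean of that gene over the 12 libraries; red is above and blue below the mean of the gene, and colours stop at ±1.2. Most enzyme rows are red at week 1 and blue in the 3 week 4 libraries labelled Δ/Δ, Ebp and Tm7sf2 are reddest in week 4 wt/wt, and Srebf2 and Abca1 are bluest in replicate 1 of week 4 wt/wt among the week 4 libraries.

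Whether the genotype difference changed between the weeks was tested directly, as the log2 difference at week 4 minus that at week 1. For 5 of the 28 this was called lower (3.08% of all genes) and for 1 it was called higher (4.08% of all genes), with a median of −0.36, beside 0.01 for all genes. The 5 were the enzymes Tm7sf2 (−1.13, SE 0.25, adjusted p 0.014), Mvd (−0.82, SE 0.16, adjusted p 0.0081), Dhcr7 (−0.76, SE 0.19, adjusted p 0.029), Ebp (−0.64, SE 0.15, adjusted p 0.018) and Fdft1 (−0.62, SE 0.17, adjusted p 0.041). Npc2 was the 1 called higher (0.71, SE 0.15, adjusted p 0.011), from below wt/wt at week 1 to above it at week 4. Sqle (−0.72, SE 0.21, adjusted p 0.065) and Cyp51 (−0.51, SE 0.15, adjusted p 0.056) did not pass, so that for these 2 genes the difference between weeks is not shown. Mvd and Npc2 were called in all 19 alternatives. The count of 6 fell to 3 without wt/wt replicate 3 of week 1 and likewise without Δ/Δ replicate 3 of week 1. Calls over all genes fell as well, from 942 of 13169 to 685 of 13372 and 647 of 13366.

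In cells sorted directly from marrow, no gene of the list was called. The test called 0 of 14605 genes, 0% of all, so the list cannot be read against it. DESeq2 called 415 of the 9599 genes it tested and 1 of the 28, Fdps, a share close to that of all genes. At an unadjusted p under 0.05 there were 6 of the 28, all lower in Δ/Δ, beside 1792 of all genes (12.3%). Of the 28, 23 lay below 0, with a median log2 difference, Δ/Δ over wt/Δ, of −0.18, beside −0.01 for all genes. The groups did not overlap for 9 of the 28, all of them lower in Δ/Δ, beside 20.5% of all genes in either direction. The summed level of the 19 enzymes was 616, 543 and 565 CPM in wt/Δ and 417, 428 and 483 CPM in Δ/Δ.

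Fdps had the largest difference, with 39.5, 39.6 and 30.5 CPM in wt/Δ and 13.7, 19.8 and 23.2 CPM in Δ/Δ (log2 difference −0.95, SE 0.24, adjusted p 0.25 in edgeR and 0.021 in DESeq2). Sqle stood at 30.6, 24.1 and 38.8 CPM in wt/Δ and at 18.6, 15.2 and 21.2 CPM in Δ/Δ (log2 difference −0.77, SE 0.24, adjusted p 0.29). In both genes the Δ/Δ libraries were all below the wt/Δ libraries. Ebp stood at 108, 94.5 and 66.7 CPM and at 55.5, 62.2 and 53.4 CPM (−0.65, SE 0.20, adjusted p 0.29), Pmvk at 40.8, 33.1 and 37.3 CPM and at 20.04, 22.1 and 30.7 CPM (−0.61, SE 0.22, adjusted p 0.33), and Msmo1 at 37.3, 40.1 and 42.9 CPM and at 25.05, 23.3 and 34.0 CPM (−0.55, SE 0.20, adjusted p 0.34). Acat2 gave −0.65 (SE 0.29, adjusted p 0.43) with overlapping groups. Of the 19 enzymes, 17 lay below 0 here and 2 above, none of them called. Enzymes called at week 4 of culture did not all lie lower: Hmgcs1 gave 0.16 (SE 0.18) and Tm7sf2 0.01 (SE 0.54). Mvd was near 0 (−0.04, SE 0.34).

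**Figure D5:**
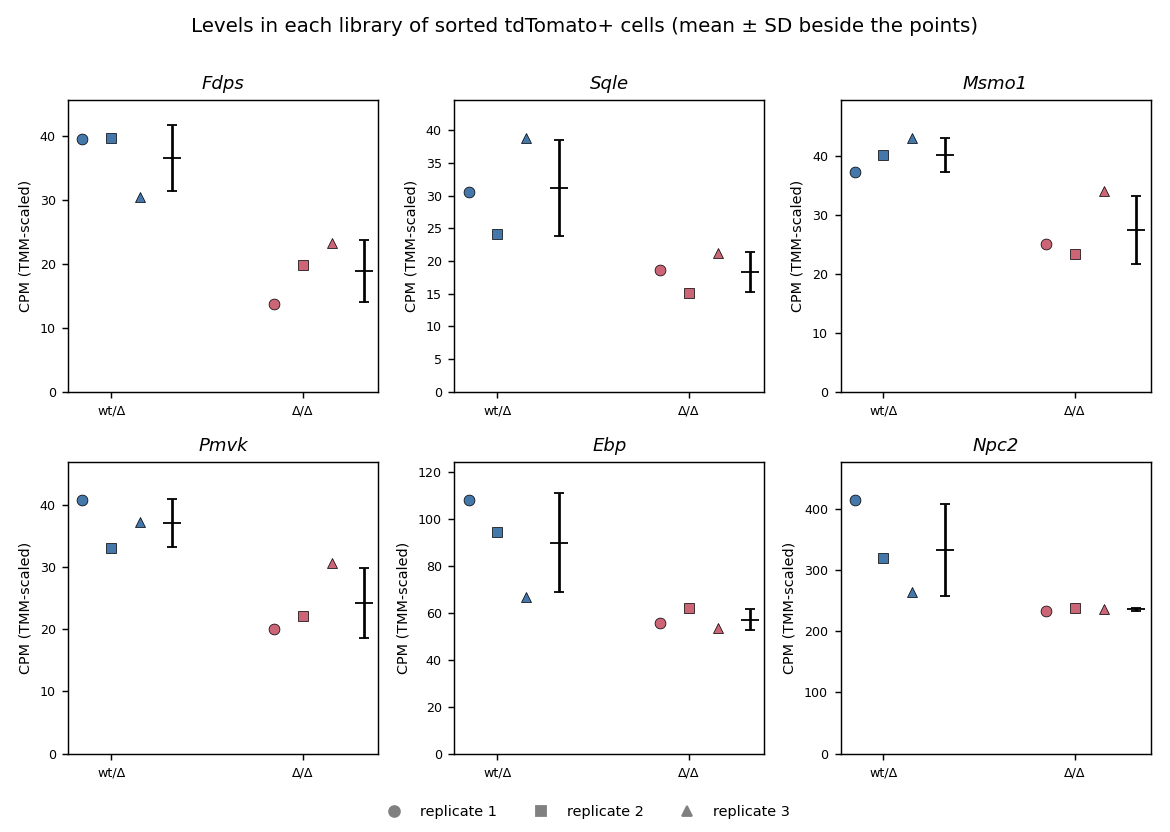
CPM after TMM scaling of 6 genes in the 6 libraries of sorted tdTomato+ cells, with wt/Δ in blue and Δ/Δ in red; marker shape gives the replicate number, and bars give the mean ± SD of 3 libraries. In all 6 genes the red points lie below the blue ones, and none of the 6 passed an adjusted p of 0.05 in edgeR.

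The regulators of the list differed little between the sorted groups. Srebf2 stood at 40.0, 38.9 and 18.001 CPM in wt/Δ and at 30.1, 33.9 and 27.2 CPM in Δ/Δ, and Insig2 at 199.5, 135 and 200.3 CPM and at 186, 138 and 211 CPM. Their log2 differences, −0.09 (SE 0.31) and −0.00 (SE 0.23), were smaller than the standard errors, as were those of Scap (0.03, SE 0.27) and Insig1 (0.01, SE 0.27). Npc2 was lower in Δ/Δ in every library, at 414, 319.8 and 265 CPM in wt/Δ and 233, 238 and 236 CPM in Δ/Δ (log2 difference −0.50, SE 0.20, adjusted p 0.37), the direction opposite to week 4 of culture. Abca1 (0.27, SE 0.17), Abcg1 (−0.08, SE 0.20), Stard4 (−0.02, SE 0.36) and Npc1 (−0.30, SE 0.25) had overlapping groups.

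The sorted libraries also differed in sex and in markers of other cell types. Reads of the Y-linked gene Ddx3y were present in wt/Δ replicates 1 and 3 (89.0 and 121 CPM) and at 0 in the other 4, so sex was not balanced between the groups, and Ebp and Nsdhl are X-linked. The 8 megakaryocyte markers summed to 1727 CPM in wt/Δ replicate 2 and 949 CPM in Δ/Δ replicate 3, and to between 18.3 and 26.8 CPM in the other 4. Neutrophil markers, 6 of 7 in the table, summed to 1856 to 3781 CPM in wt/Δ and 1974 to 3292 CPM in Δ/Δ, and the 10 macrophage markers to 1008 to 2607 CPM and 1277 to 2158 CPM. The 7 proliferation markers summed to 195 to 358 CPM in wt/Δ and 360.3 to 423 CPM in Δ/Δ, with no overlap. The 5 osteoclast markers summed to 5292, 4045 and 6271 CPM in wt/Δ and 2140.0, 2040.0 and 6723 CPM in Δ/Δ, and the 5 osteoblast markers to 6962 to 14686 CPM and 5766 to 8213 CPM, with overlap in each. The part of sex and of these lists in the enzyme values was not tested beyond the fits given next. For Fdps the log2 difference in edgeR was −1.07 with sex in the fit (adjusted p 0.46) and −1.06 without the 2 libraries rich in megakaryocyte markers (adjusted p 0.68). Of the 28, 0 were called in either fit, beside 0 of 14605 and 2 of 14700 genes tested, so the list cannot be read against them.

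Further genes of sterol and lipid metabolism were counted at week 4 from lists of which 2, the LXR pathway and the isoprenoid branch, each share 2 genes with the 28. The counts stand beside 9.2% of all genes called higher and 6.46% called lower. Of 37 other cholesterol genes, 2 were higher in Δ/Δ (5.41%) and 5 lower (13.5%). Soat1, which esterifies cholesterol for storage, rose from 186 to 275 CPM in wt/wt to 449 to 563 CPM in Δ/Δ (log2 difference 1.18, SE 0.15, adjusted p 1.78e-04), and Vldlr, a lipoprotein receptor, fell from 100.4 to 108 CPM to 53.7 to 58.7 CPM (−0.88, SE 0.12, adjusted p 3.36e-04). The other gene called higher was Cyp7b1, an oxysterol hydroxylase (1.71, SE 0.17), and those called lower included Scarb1, a receptor of high-density lipoprotein (−0.39, SE 0.10), and Erlin1, a protein of the endoplasmic reticulum (−0.32, SE 0.10); these 3 were named after their values were seen. Of 22 genes tested of the SREBP-1 arm of fatty acid synthesis, 4 were lower (18.2%) and 1 higher (4.55%). The 4 were Aldoc (−1.14), Tmem97 (−0.79), Aacs (−0.61) and Fads2 (−0.52), of which Aldoc, a glycolytic aldolase, Tmem97, a sterol-binding membrane protein, and Aacs, a ligase of acetoacetate, do not themselves build fatty acids.

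Of 17 tested genes of the LXR pathway, 4 were higher (23.5%) and 0 lower at week 4, and 1 was already called higher at week 1. Lpl, a lipase of lipoproteins, lay at 239 to 279.6 CPM in wt/wt and 1031 to 1371 CPM in Δ/Δ (log2 difference 2.23, SE 0.17, adjusted p 2.28e-06). Smpdl3a (0.74, SE 0.13) and Nr1h3, which encodes LXRα (0.70, SE 0.13), were higher as well, and the fourth, which was also the gene called at week 1, is not named here. The list holds Abca1 and Abcg1 too, and neither was among the 4. Lpl is also made in quantity by adipocytes, whose 5 markers were higher in Δ/Δ, as given above, and their part in the Lpl value was not tested. Of 18 genes of the isoprenoid branch 1 was lower (5.56%, a share near that of all genes), the enzyme Fdps already described, and 0 were higher. Of 12 regulators of SREBP2 and INSIG 0 were lower and 3 higher: Epas1, a hypoxia-inducible factor (1.79, SE 0.28), Prkaa2, a catalytic subunit of AMPK (0.86, SE 0.22), and Lpin1, a phosphatidate phosphatase (0.48, SE 0.13). Lpin1 is also the gene of the SREBP-1 arm that was higher.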

How the data were processed

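Libraries were made with a SMART-Seq v4 and Nextera XT protocol that does not mark strand. The authors aligned reads with HISAT2 2.0.4 to mm10 and deposited raw counts per gene from featureCounts 1.6.3, in 1 table for 12 cultured and 1 for 6 sorted libraries. Here the counts were tested with edgeR 4.0.16 (R 4.3.3): filterByExpr with a minimum count of 10, TMM scaling, the quasi-likelihood test, and Benjamini-Hochberg adjustment over all genes tested of a table, with a threshold of 0.05. One fit with 1 coefficient per group held all 12 cultured libraries, and another the 6 sorted libraries. The scripts were tested on simulated data. CPM levels are TMM-scaled, and exon lengths came from GENCODE vM21 (GRCm38). DESeq2 1.42.0, other scalings and filters, a replicate block, fits of only the libraries compared and fits without each library in turn were the alternatives. Those without replicate 1 of week 4, without the megakaryocyte-rich libraries, with sex, and with a block in wild type alone were chosen after seeing the data.

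Replicate numbers were checked for pairing by the correlation across genes of deviations from group means. All 3 pairs were over 0.1 only between the weeks of wt/wt (0.15, 0.22 and 0.21), so a block on these libraries alone was added as a further fit. The main comparisons used no pairing. The 28 genes and the comparison lists were chosen with earlier results of these data known. Members were described in full where called in any comparison or where they regulate or carry sterol, and up to 4 called genes of each comparison list whose mean log2 CPM reached 3 could be named. The text names part of these. Where exons of a gene overlap those of another (Tm7sf2 with Vps51 on the same strand, Fdft1 with Ctsb, Cyp51 with Akap9, Ggps1 with Arid4b and Lss with 4930483K19Rik on the opposite strand), their reads cannot be told apart in the overlap.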

Additional observations from a re-analysis of the deposited data

Results flagged for a closer look

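For 6 genes the genotype difference at week 4 of culture differed from that at week 1 by a test of the difference itself (edgeR's quasi-likelihood test, adjusted p under 0.05 over all genes). On the log2 scale, week 4 minus week 1, the change of the difference was −0.62 for Fdft1, −0.76 for Dhcr7, −0.82 for Mvd, −1.13 for Tm7sf2, −0.64 for Ebp and 0.71 for Npc2. In Tm7sf2, Ebp and Dhcr7 the libraries labelled Δ/Δ had the higher mean at week 1 and the lower at week 4, and in Npc2 the order was the reverse. The call of Fdft1 was lost in 13 of 19 alternatives, that of Dhcr7 in 8, of Ebp in 3 and of Tm7sf2 in 1 (without Δ/Δ replicate 3 of week 1), while Mvd and Npc2 kept theirs. Exons of Tm7sf2 and Vps51 overlap on the same strand over 532 bases, and those of Fdft1 and Ctsb on opposite strands over 774 bases. What these overlaps add to the values was not tested.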

How the results depend on the processing

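Of the 44 calls made over the 28 genes, 30 were kept in every alternative run, 14 were lost in at least 1, and 0 changed direction. At week 4, 13 genes were called by genotype, beside 2062 of all 13169 genes. The count was 4 at an adjusted p of 0.01, where all genes were not counted. It was 4 when only the 6 libraries compared were fitted, beside 1267 of 12808 genes, a share closer to that of the list than in the main fit. Leaving out 1 library gave 7 to 13, beside 1551 to 2339 of all genes (7 without Δ/Δ replicate 3 and 8 without Δ/Δ replicate 1, both of week 4). With replicate 1 of both genotypes left out the count was 9, beside 2005 of 13285 genes. For the change of the genotype difference, 6 genes were called, 1 at an adjusted p of 0.01, and 3 to 5 without 1 library. Over all genes, 942 of 13169 were called for that change, and 647 to 1248 without 1 library. In sorted cells DESeq2 called 1 gene of the list, Fdps, beside 415 of the 9599 genes it tested, and edgeR called no gene in or outside the list. Time in wt/wt gave 10 calls (9 to 13 without 1 library) and time in Δ/Δ 15 (15 to 18). Over all genes, time gave 4483 calls in wt/wt (3614 to 4602 without 1 library) and 4623 in Δ/Δ (3353 to 5572). With a replicate block the counts were 10 at week 4, 10 and 15 for time, 5 for the change of the difference, and 0 at week 1 and in sorted cells. Over all genes the block called 1909 at week 4, 4314 and 4537 for time, 886 for the change of the difference and 109 at week 1, of 13169 tested. In sorted cells it called 0 of 14605. Outside wt/wt over time, same-numbered libraries did not all deviate together. At week 4 those of replicate 1 did (correlation 0.636), that of replicate 2 was 0.23 and that of replicate 3 was −0.08. Whether a call lost at week 4 under the block reflects such sharing was not tested. How far depth limits each member was not compared. The causes of these shifts were not tested, except that the fit of only the libraries compared rests on fewer libraries.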

Other observations

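Of 22 tested genes of the SREBP-1 arm of fatty acid synthesis, 5 were called lower (22.7%) and 1 higher (4.55%) between week 1 and week 4 in wt/wt cells, beside 16.1% of all genes called lower and 17.9% called higher. In the libraries labelled Δ/Δ, 10 were lower (45.5%) and 1 higher, beside 16.3% and 18.8% of all genes. The named genes that fell in Δ/Δ were Aldoc (log2 difference −2.75, SE 0.15), Scd1, a fatty acid desaturase (−2.22, SE 0.43), Fasn, the fatty acid synthase (−1.95, SE 0.65), and Elovl6, an elongase (−1.30, SE 0.13). In wt/wt they were Elovl6 (−1.10, SE 0.13), Aldoc (−0.98, SE 0.14) and Scd2 (−0.81, SE 0.15), and Lpin1 was the gene that rose (0.94, SE 0.13). The difference between genotypes in this change was called lower for 3 of the 22 (13.6%, beside 3.08% of all genes), Aldoc (−1.77, SE 0.20), Tmem97 (−0.69, SE 0.18) and Aacs (−0.66, SE 0.15). These 3 do not themselves build fatty acids, and no other gene of this list was called in that test. In sorted cells 0 of 24 were called, in a test that called no gene at all.

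Soat1 and Lpl moved in opposite directions to most synthesis enzymes. In the change of the genotype difference from week 1 to week 4, Soat1 gave 1.11 (SE 0.21, adjusted p 0.0063), Lpl 2.41 (SE 0.23, adjusted p 5.01e-05) and Vldlr −1.19 (SE 0.17, adjusted p 0.0011) on the log2 scale, by edgeR. Their levels at week 1 were alike in range: Soat1 lay at 212 to 243 CPM in wt/wt and 231 to 251 CPM in Δ/Δ, and Lpl at 521 to 657 CPM and 447 to 647 CPM. In sorted cells Lpl ranged from 1533 to 8350.1 CPM in wt/Δ and from 3345 to 3826 CPM in Δ/Δ, so that the wt/Δ libraries enclosed those of Δ/Δ.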
